A study of Mus musculus with 12 samples.

Results

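The genes described here are 8 cell-cell junction genes: the cadherins Cdh1, Cdh2, Cdh3 and Cdh11, the catenins Ctnnb1 and Jup, the desmosome linker Dsp and the immunoglobulin-family receptor Cxadr. They were taken by symbol from the deposited count tables, and all 8 were among the 54582 symbols that both tables hold. They were chosen by their measured values in these libraries, because Cdh3, Cdh1 and Cxadr were lower in the knockout with apoptotic cells and Dsp appeared in co-culture. Values of those contrasts are therefore given as a description, without a test. For the members, the knockout is tested against wild type only in the libraries without apoptotic cells. The stated rule did not use that contrast, but Dsp was chosen against those libraries. The choice was also made with earlier results of these data known. Other junction genes are tested in both conditions. RNA sequencing was done on primary bone marrow-derived macrophages, which the labels trace to the tibia of mice aged 6 to 8 weeks, with 3 libraries in each of 4 groups. The KO group is labelled Kif13b-/- in one field and Kif13b knock down in another, without apoptotic cells, and the WT group is wild type without them. The KO + AC and WT + AC groups are the same genotypes after 90 min with apoptotic Jurkat cells (a leukaemic line of human T cells) at 5 apoptotic cells per macrophage. The labels give serum at 12, 13 and 14% for the KO libraries and 10, 10 and 11% for the WT libraries. Such a run of percentages may be a spreadsheet fill, and it is in doubt. The strain is not given in the sources used here. The series addresses KIF13B, a kinesin motor, in the clearance of apoptotic cells.

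Classical cadherins are transmembrane proteins whose outer domains bind the same cadherin on a neighbouring cell in the presence of calcium. Inside the cell they hold beta-catenin (Ctnnb1) or plakoglobin (Jup), which link them through alpha-catenin to actin, and beta-catenin not held there is the transcriptional arm of Wnt signalling. In desmosomes, plakoglobin and plakophilins join the desmosomal cadherins to desmoplakin (Dsp), which anchors intermediate filaments. Macrophages are not an epithelium, but E-cadherin (Cdh1) is known from alternatively activated macrophages and from the fusion of macrophages into giant cells.

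The libraries with apoptotic cells held 17000976 to 17285594 counts over 31787 to 32801 symbols, and those without held 18256622 to 18770757 counts over 18335 to 18540 symbols. The 2 conditions stand in separate tables, so condition and table cannot be told apart. All 8 macrophage markers, among them Adgre1, Cd68 and Csf1r, had counts in every library. Kif13b had 281, 345 and 424 counts in KO against 535 to 599 in WT, but 1697 to 1721 in the libraries labelled KO + AC against 1561 to 1634 in WT + AC, which goes against the label. KO + AC below means the libraries so labelled. The labels do not tell whether replicate libraries are separate animals or cultures, and the p-values therefore cover only their spread, which may be technical. A lower level in bulk RNA can reflect fewer cells that express the gene or less RNA per cell, which cannot be told apart.

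Levels are given as CPM, counts relative to the library total, scaled by TMM over all 12 libraries, and fold changes as log2 of KO over WT with the standard error (SE). Per kilobase of exon, Ctnnb1 stood far above the other members in every group, at 67.6 ± 12.9 CPM per kb in KO and 79.5 ± 4.30 in WT (SD, n = 3 each, as for every mean ± SD). Cdh11 (7.89 ± 1.37), Cdh3 (6.66 ± 0.774), Jup (5.05 ± 0.293), Cdh2 (3.40 ± 0.514) and Cxadr (1.32 ± 0.370 CPM per kb) followed in KO, and the ranges of Cdh11 and Cdh3 overlapped. In WT the order was Cdh11 (5.78 ± 0.141), Jup (4.10 ± 0.581), Cdh3 (3.14 ± 0.746), Cdh2 (3.04 ± 0.220) and Cxadr (1.23 ± 0.0484 CPM per kb), with Cdh3 overlapping both Jup and Cdh2. Cdh1 (0.0433 ± 0.0267 CPM per kb in KO and 0.0756 ± 0.0282 in WT) and Dsp were lowest. With apoptotic cells Jup was second after Ctnnb1, at 5.48 ± 0.120 CPM per kb in KO + AC and 4.57 ± 0.305 in WT + AC. Cdh2 (1.27 ± 0.0306), Cdh11 (1.22 ± 0.157), Dsp (0.971 ± 0.114), Cdh3 (0.448 ± 0.0585), Cxadr (0.354 ± 0.0774) and Cdh1 (0.315 ± 0.0710) followed in KO + AC. In WT + AC these were Cdh2 (1.98 ± 0.0724), Cdh11 (1.54 ± 0.110), Cdh3 (0.903 ± 0.0822), Dsp (0.884 ± 0.0616), Cxadr (0.636 ± 0.0112) and Cdh1 (0.565 ± 0.0214 CPM per kb). Neighbours in these orders whose ranges overlapped were Cdh2 and Cdh11, Cdh3 and Cxadr, and Cxadr and Cdh1 in KO + AC, and Cdh3 and Dsp in WT + AC.

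**Figure D1:**
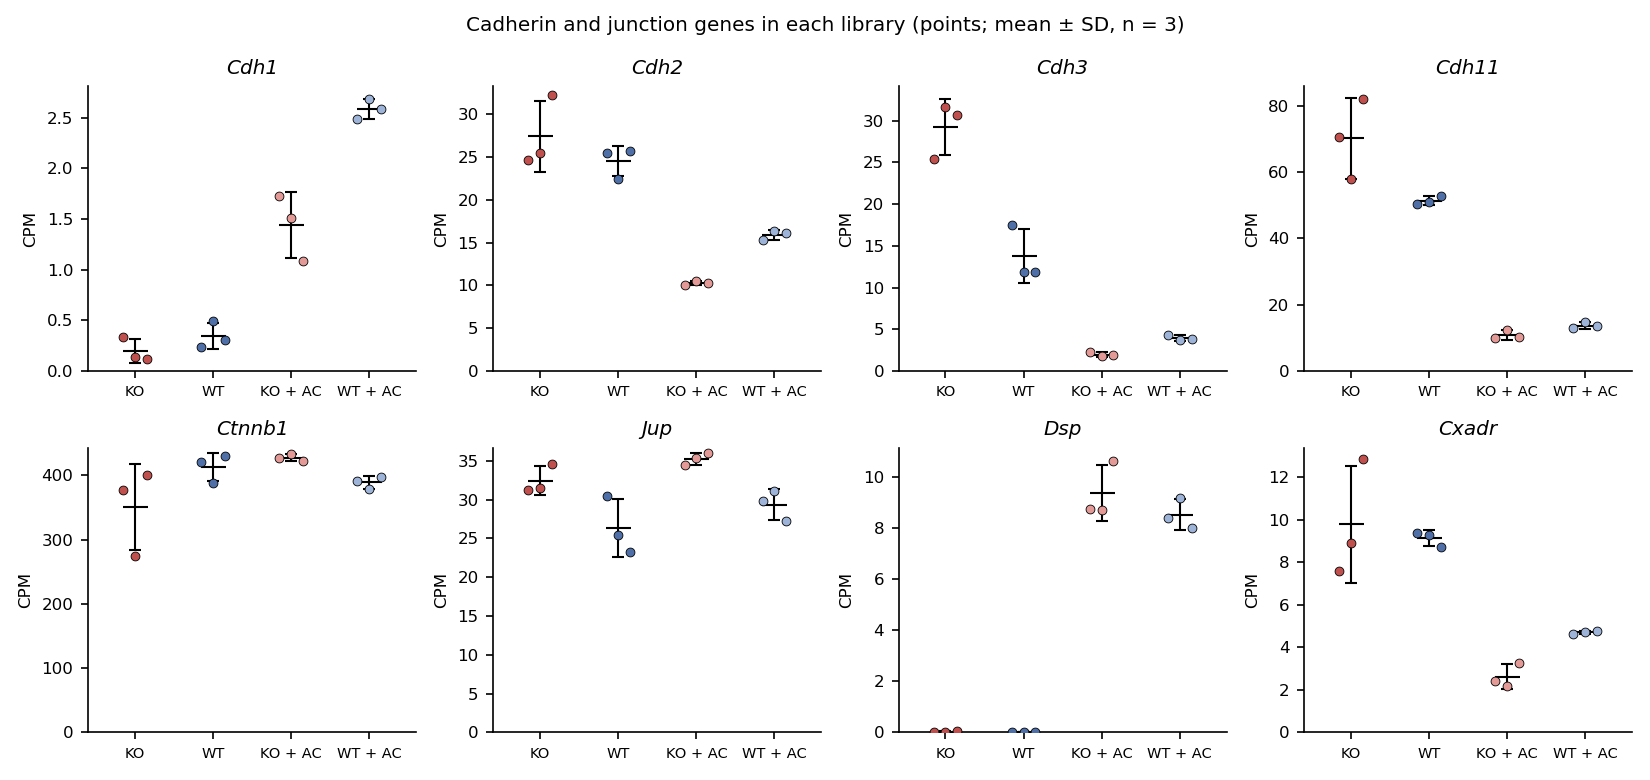
Level of each gene in CPM (vertical axes, linear from 0) in the 3 libraries of each group, with the mean and SD. Cdh3 and Cdh11 are higher in KO than in WT and lower in KO + AC than in WT + AC, and Dsp is at or near 0 without apoptotic cells.

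Without apoptotic cells, P-cadherin and cadherin-11 RNA was higher in the KO libraries, and none of the members tested was called lower. The cadherin-11 call depended on single libraries, as given below. Of the 8 members, 6 passed the filter on low counts and 2 of these were called at an adjusted p under 0.05 (edgeR's quasi-likelihood test, Benjamini-Hochberg over 12640 genes), Cdh3 and Cdh11. Of all genes tested, 16.2% were called, 7.94% higher and 8.24% lower. The KO and WT libraries did not overlap for 3 of the 6, Cdh3, Cdh11 and Jup, and for 33.6% of all genes tested. Cdh1 and Dsp were not tested, having 9 and 1 counts over the KO and 17 and 0 over the WT libraries.

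P-cadherin (Cdh3) lies on GRCm38 chromosome 8 at 106510891 to 106557297, plus strand, 46053 bp upstream of E-cadherin (Cdh1, 106603351 to 106670246, plus strand). It had 374, 474 and 503 counts in the KO libraries, or 25.4, 31.7 and 30.6 CPM, against 293, 194 and 192 counts, or 17.5, 11.9 and 11.9 CPM, in the WT libraries. Every KO library was above every WT library. The log2 fold change was 1.09 (SE 0.16, edgeR adjusted p = 0.000146), about 2.13-fold, and it was called under all 13 alternatives, over a range of 0.98 to 1.30 (adjusted p 7.66e-10 to 0.00927). With apoptotic cells the order of the labelled genotypes was the opposite, and Kif13b goes against those labels. Cdh3 had 43, 34 and 36 counts (2.25, 1.77 and 1.87 CPM) in KO + AC, against 86, 74 and 77 counts (4.36, 3.67 and 3.83 CPM) in WT + AC. Again the groups did not overlap, and the fitted log2 value was -1.03 (SE 0.17), a value on which Cdh3 was chosen. Whether the KO effect differs between the conditions was not tested, since one of the 2 effects chose the gene.

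Cadherin-11 (Cdh11, chromosome 8, 102632095 to 102785642, minus strand) is a cadherin of mesenchymal cells, osteoblasts and synovial fibroblasts. It had 70.6, 57.9 and 82.2 CPM in KO, against 50.4, 51.0 and 52.8 CPM in WT. All KO libraries were above all WT libraries, with a wider spread in KO. The log2 fold change was 0.45 (SE 0.13, edgeR adjusted p = 0.0254). This call ended when KO library 1 (adjusted p = 0.0854), KO 3 (0.0772), WT 1 (0.0597), WT 2 (0.0853) or WT 3 (0.075) was left out, with adjusted p-values of 0.000734 to 0.0854 across the alternatives. In co-culture its level was 9.85, 12.4 and 10.2 CPM in KO + AC, against 12.8, 14.8 and 13.4 CPM in WT + AC. The groups were again separate, by a narrow margin, with a log2 value of -0.36 (SE 0.09).

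N-cadherin (Cdh2, chromosome 18), the cadherin of neural and mesenchymal cells, was separated by genotype with apoptotic cells and not without them. It had 24.7, 25.5 and 32.2 CPM in KO, against 25.4, 22.5 and 25.7 CPM in WT. The groups overlapped, with a log2 fold change of 0.17 (SE 0.14, edgeR adjusted p = 0.409) that was -0.01 without KO library 3 (adjusted p = 0.97). In co-culture its level was 10.0, 10.5 and 10.2 CPM in KO + AC, against 15.3, 16.4 and 16.1 CPM in WT + AC. The libraries of each group were close to each other and the groups far apart, with a log2 value of -0.66 (SE 0.08).

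E-cadherin (Cdh1), the cadherin of epithelia, was near the limit of detection without apoptotic cells. The KO libraries had 5, 2 and 2 counts and the WT libraries 4, 8 and 5, so a difference was not detectable at this depth. In co-culture it had 33, 29 and 21 counts (1.73, 1.51 and 1.09 CPM) in KO + AC, against 49, 54 and 52 counts (2.49, 2.68 and 2.59 CPM) in WT + AC. The groups did not overlap, with a log2 value of -0.86 (SE 0.20) on which the gene was chosen. The adjacent genes Cdh3 and Cdh1 were thus both lower in KO + AC than in WT + AC, while their levels went opposite ways with co-culture, as given below.

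Among the catenins, beta-catenin mRNA was not called by genotype without apoptotic cells, and its KO libraries differed among themselves. Ctnnb1 (chromosome 9, 120929216 to 120960507, plus strand) had 377, 275 and 401 CPM in KO, against 420, 388 and 431 CPM in WT. KO library 2 was the lowest of the 6 and the groups overlapped (log2 -0.23, SE 0.14, edgeR adjusted p = 0.241). Without KO library 3 it was called lower in KO (log2 -0.38, adjusted p = 0.0291, between 0.0291 and 0.907 across alternatives). It had 426, 433 and 422 CPM in KO + AC and 391, 378 and 397 CPM in WT + AC, separate groups with a log2 value of 0.11 (SE 0.03). Plakoglobin (Jup, chromosome 11, 100368958 to 100397763, minus strand), which serves both adherens junctions and desmosomes, had 31.2, 31.5 and 34.6 CPM in KO, against 30.5, 25.5 and 23.2 CPM in WT. The groups were separate by a narrow margin, but the log2 fold change of 0.30 did not pass the threshold (SE 0.13, edgeR adjusted p = 0.116, between 0.0325 and 0.446 across alternatives). With apoptotic cells Jup had 34.5, 35.4 and 36.0 CPM in KO + AC, against 29.8, 31.1 and 27.2 CPM in WT + AC (log2 0.24, SE 0.06). Jup was thus on the higher side in KO in both conditions, unlike the 2 cadherins called.

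The start regions of desmoplakin (Dsp) and plakoglobin are shown, 2 partners of the desmosomal plaque that differ in their pattern. Jup had 375 or more counts in every library, and Dsp at most 1 in each library without apoptotic cells. RefSeq promoter windows on GRCm38.p6 were matched for 3 of the 8 members (Dsp, Jup and Ctnnb1). The windows of Dsp (chr13:38151044-38151343, plus strand) and Jup (chr11:100397741-100398040, minus strand) are printed 5′ to 3′ in lower case, with each GC box (GGGCGG or its reverse complement CCGCCC) in capitals.
Dsp: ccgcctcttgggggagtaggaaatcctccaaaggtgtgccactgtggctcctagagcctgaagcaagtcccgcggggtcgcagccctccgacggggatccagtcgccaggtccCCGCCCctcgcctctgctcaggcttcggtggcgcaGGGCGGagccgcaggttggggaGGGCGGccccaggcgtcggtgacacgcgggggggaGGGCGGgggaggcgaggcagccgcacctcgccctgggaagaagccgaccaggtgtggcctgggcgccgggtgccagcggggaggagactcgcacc
Jup: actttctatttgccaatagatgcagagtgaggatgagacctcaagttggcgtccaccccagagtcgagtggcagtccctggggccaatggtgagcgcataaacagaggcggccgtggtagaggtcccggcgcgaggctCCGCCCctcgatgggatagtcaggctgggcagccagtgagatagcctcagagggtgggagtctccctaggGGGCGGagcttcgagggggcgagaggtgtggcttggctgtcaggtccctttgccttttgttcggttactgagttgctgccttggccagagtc
The Dsp window is 73% G and C with 27 CpG sites and 4 GC boxes, and the Jup window is 60.7% G and C with 14 CpG sites and 2 GC boxes. A GC box stands in 35.7% of the 32851 RefSeq windows of this length. The letters CAGGTG or CACCTG, an E-box that Snail and Zeb factors can bind, occur once in the Dsp window and not in the Jup window, and in 20.2% of all windows. A match in these letters is no evidence of a bound site.

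Desmoplakin (Dsp, chromosome 13, 38151294 to 38198577, plus strand) showed no separation by genotype. It had 167, 168 and 205 counts (8.75, 8.74 and 10.6 CPM) in KO + AC, against 166, 185 and 161 counts (8.42, 9.19 and 8.01 CPM) in WT + AC, and the groups overlapped (log2 0.11, SE 0.10). Cxadr (chromosome 16, 78301489 to 78359774, plus strand), the coxsackievirus and adenovirus receptor of tight junctions, had 7.59, 8.89 and 12.9 CPM in KO, against 9.39, 9.29 and 8.72 CPM in WT. The KO libraries lay on both sides of WT, with a log2 fold change of 0.10 (SE 0.18, edgeR adjusted p = 0.707) that turned to -0.19 without KO library 3 (adjusted p = 0.384). In co-culture there were 46, 42 and 63 counts (2.41, 2.18 and 3.27 CPM) in KO + AC, against 91, 95 and 96 counts (4.62, 4.72 and 4.78 CPM) in WT + AC. The groups did not overlap, with a log2 value of -0.87 (SE 0.16) on which it was chosen. Cxadr overlaps Btg3 on the opposite strand, and the strand setting of the counting is not given in the sources used here, so reads from the shared stretch cannot be told apart. Across the 8 members with apoptotic cells, 5 were lower and 2 higher in KO + AC without overlap, where 26.4% of all genes tested did not overlap. Since this contrast chose the members, nothing is read from that count.

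**Figure D2:**
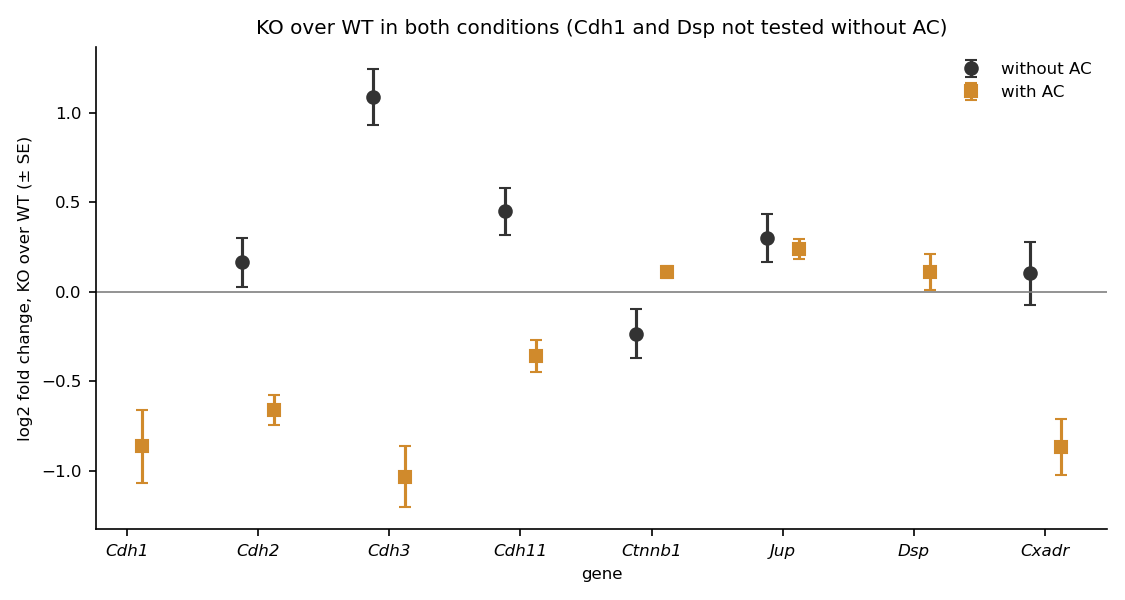
Fitted log2 fold change of KO over WT (vertical axis, ± SE) for each gene (horizontal axis) without apoptotic cells (circles) and with them (squares). Cdh3 is at 1.09 without and at -1.03 with apoptotic cells, and Cdh1 and Dsp have no value without them.

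The sum of the stromal markers had the same order of the labelled genotypes as Cdh3 and Cdh11 in both conditions. Of 12 markers of fibroblasts and stromal cells, such as Col1a2, Col3a1, Dcn and Acta2, 11 were tested without apoptotic cells, and 7 were called higher and 0 lower in KO (median log2 0.59, against 0.02 over all genes). With apoptotic cells 10 were tested, and 0 were called higher and 6 lower in KO + AC (median log2 -0.55, against -0.02 over all genes). Their summed level was 1020 to 1320 CPM in KO against 675 to 832 in WT, and 272 to 294 CPM in KO + AC against 394 to 433 in WT + AC. Not every marker followed the sum, and Acta2 had 16.0 ± 1.22 CPM in KO + AC against 15.3 ± 0.567 in WT + AC. All 12 had counts in every KO, KO + AC and WT + AC library, and 11 in every WT library. Of 12 epithelial and mesothelial markers, 1 was called higher and 1 lower of 7 tested without apoptotic cells, and none of 8 with them. Their sum was 72.3 to 79.3 CPM in KO against 52.5 to 64.8 in WT, most of it Upk3b, with Krt5 at 0 in WT, and 10.7 to 11.8 CPM in KO + AC against 12.1 to 12.7 in WT + AC. Of the 8 macrophage markers, 0 were called higher and 1 lower in KO, and 5 higher and 0 lower in KO + AC. Of all genes tested, 16.2% were called without apoptotic cells and 11.3% with them. The part of other cell types in the cadherin differences was not tested.

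**Figure D3:**
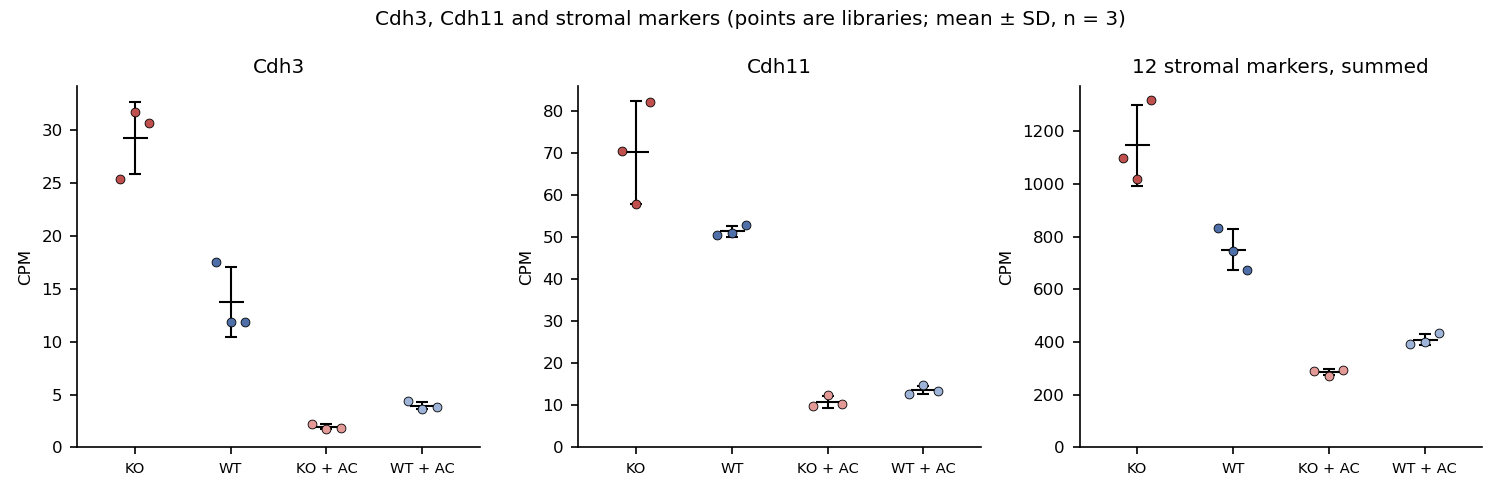
CPM of Cdh3, of Cdh11 and of the sum of 12 stromal markers (vertical axes, linear from 0) in each library, with the mean and SD of each group. All 3 are higher in KO than in WT and lower in KO + AC than in WT + AC, without overlap.

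The genes of likest pattern were sought by the root mean square difference of log2 CPM, each gene centred on its own mean over the 12 libraries, among 11422 protein-coding genes. Nearest to Cdh3 were Vegfd, a lymphatic growth factor (0.261), Srpx (0.277) and Ecscr, an endothelial surface protein (0.297 log2 units). Srpx averaged 14.3 CPM in KO against 6.57 in WT, and 0.869 CPM in KO + AC against 1.37 in WT + AC. Nearest to Cxadr were the RNA-binding protein gene Bicc1 (0.138), the transcription factor gene Gata6, which marks peritoneal macrophages and mesothelium (0.2), and the guidance cue Sema3a (0.209). Gata6 averaged 22.4 CPM in KO against 20.9 in WT, and 7.11 CPM in KO + AC against 10.7 in WT + AC, so that, like Cxadr, its means were close without apoptotic cells and lower in KO + AC with them. Nearest to Cdh1, at larger distances, were Fras1 (0.394), Ocstamp, a gene of osteoclast and giant cell fusion (0.493), and Ikzf2 (0.5). Fras1 averaged 2.33 CPM in KO + AC against 2.28 in WT + AC, and so did not share the lower level of Cdh1 in KO + AC. Ocstamp averaged 1.32 against 2.18 CPM and Ikzf2 3.33 against 3.97 CPM in these groups.

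The other junction genes were taken from 6 lists of 108 genes, without the members. Their CPM in the KO comparisons are scaled over the 6 libraries of one condition. Without apoptotic cells 104 were matched and 52 tested, and 10 (19.2%) were called, 5 higher and 5 lower in KO, against 16.2% of all genes. The desmosomal plaque gene Pkp2, plakophilin-2, which joins desmosomal cadherins to desmoplakin, had 5.64 ± 0.994 CPM in KO and 3.09 ± 0.286 CPM in WT (log2 0.87, SE 0.19, edgeR adjusted p = 0.00616), the only one of 3 tested desmosome genes called. It was called under all 13 alternatives. Among genes of the adherens plaque and nectins, 2 of 10 were called, both higher. Nectin2, an immunoglobulin-family adhesion molecule, had 40.3 ± 2.04 against 26.5 ± 3.78 CPM (log2 0.60, edgeR adjusted p = 0.00629), and the catenin Arvcf had 5.47 ± 1.24 against 3.68 ± 0.332 CPM (log2 0.57, adjusted p = 0.044).

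Among regulators of cadherins, 3 of 7 were called. Adam10, the protease that sheds E-cadherin and N-cadherin, had 102 ± 11.9 CPM in KO against 158 ± 32.4 in WT (log2 -0.63, edgeR adjusted p = 0.00708). The repressor of E-cadherin Zeb2 was also lower (log2 -0.53, adjusted p = 0.0139), and the mesenchymal factor Twist1 higher (log2 0.65, adjusted p = 0.0205). In the beta-catenin pathway 3 of 11 were called. Nkd1, a feedback inhibitor of Wnt signalling, was higher (log2 0.87, adjusted p = 0.0115), and 2 genes of the complex that marks beta-catenin for breakdown, Gsk3b (log2 -0.45, adjusted p = 0.0269) and Apc (log2 -0.51, adjusted p = 0.0378), were lower. Of 16 tight junction genes 1 was called, paracingulin Cgnl1 (17.1 ± 2.17 CPM in KO against 24.8 ± 1.33 in WT, log2 -0.53, adjusted p = 0.0141). Of 5 tested further cadherins 0 were called by edgeR, with 0 at an unadjusted p under 0.05 and 0 called by DESeq2.

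Single libraries decided most of these calls. Without KO library 1 the calls of Adam10, Apc, Cgnl1, Gsk3b, Nkd1, Twist1 and Zeb2 ended, and without KO 2 those of Apc, Arvcf, Gsk3b and Zeb2. Without KO 3 the call of Arvcf ended, without WT 1 those of Apc, Arvcf and Gsk3b, and without WT 2 those of Apc, Arvcf, Cgnl1 and Twist1. Without WT 3 all of them ended but those of Pkp2 and Cgnl1. With the correction for length and GC content the calls of Zeb2 (log2 -0.04, adjusted p = 0.769), Twist1 (0.30, 0.288), Apc (-0.20, 0.274), Gsk3b (-0.27, 0.0697) and Arvcf (0.39, 0.114) ended, and Nectin2 (0.35, 0.0227) and Adam10 (-0.38, 0.0422) kept theirs at smaller values. The list count was 3, 6 and 15 without KO 1, 2 and 3, and 8, 6 and 2 without WT 1, 2 and 3.

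With apoptotic cells all 108 were matched and 68 tested, and 13 (19.1%) were called, 5 higher and 8 lower in KO + AC, against 11.3% of all genes (6.58% higher and 4.75% lower). With a correction for length and GC content 8 list genes were higher and 6 lower. Of 13 tested genes of the adherens plaque and nectins 3 were called higher: vinculin Vcl (157 ± 5.16 CPM in KO + AC against 128 ± 8.23 in WT + AC, log2 0.29, edgeR adjusted p = 4.56e-07), Lima1 (log2 0.16, adjusted p = 0.00228) and alpha-catenin Ctnna1 (log2 0.15, adjusted p = 0.00318). The fourth of the list called was Nectin2, lower in KO + AC (10.7 ± 0.844 against 13.3 ± 0.766 CPM, log2 -0.31, adjusted p = 0.0168). Of 6 desmosome genes Pkp2 alone was called, and it was lower (1.46 ± 0.144 against 2.63 ± 0.704 CPM, log2 -0.85, adjusted p = 0.00651). Among the regulators 4 of 8 were called. Adam17, a shedding protease, was higher (500 ± 7.64 against 415 ± 7.68 CPM, log2 0.27, adjusted p = 1.88e-08), as was Zeb2 (log2 0.15, adjusted p = 0.00131). The E-cadherin repressors Zeb1 (log2 -0.32, adjusted p = 0.0245) and Snai1 (log2 -0.60, adjusted p = 0.0403) were lower, and a link to the level of Cdh1 was not tested. The atypical cadherin Fat1, 1 of 11 further cadherins, was lower (16.0 ± 1.19 against 20.7 ± 1.85 CPM, log2 -0.37, adjusted p = 0.000516). Also lower were the scaffold Tjp1, 1 of 17 tight junction genes (log2 -0.43, adjusted p = 0.0265), and, of 13 genes of the beta-catenin pathway, the target gene Ccnd1 (log2 -0.40, adjusted p = 0.00592) and the ubiquitin ligase gene Btrc (log2 -0.28, adjusted p = 0.0417).

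The libraries with apoptotic cells had a low spread (biological coefficient of variation 0.0294, against 0.117 without). In the joint fit of 12 libraries this coefficient was 0.0839. There, 0 of 66 were called by edgeR (13 at an unadjusted p under 0.05). DESeq2 on the 6 libraries called 8. Single libraries ended the calls of Btrc, Snai1 and Zeb1 (KO + AC 1), of these with Nectin2 and Tjp1 (KO + AC 2, leaving 8 of the lists called), and of Btrc, Snai1, Tjp1 and Zeb1 (KO + AC 3). Likewise without WT + AC 1 the calls of Btrc, Nectin2, Snai1 and Zeb1 ended, without WT + AC 2 those of Btrc, Ctnna1, Pkp2 and Tjp1, and without WT + AC 3 those of Snai1, Tjp1 and Zeb1.

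The difference between the KO effects was tested for these 20 genes as an interaction in the joint fit, with p adjusted over all 16810 genes. Each was named for its call in at least 1 of the 2 KO comparisons, so the interaction is not independent of that choice, and its direction rests on the labels KO + AC and WT + AC, which Kif13b goes against. Pkp2 had an interaction of -1.69 (log2, SE 0.29, edgeR adjusted p = 0.00048), being higher in KO without and lower in KO + AC with apoptotic cells. Nectin2 differed in the same sense (log2 -0.89, SE 0.16, adjusted p = 0.000603). Adam10 (0.74, adjusted p = 0.00205), Zeb2 (0.70, adjusted p = 0.00204) and Adam17 (0.64, adjusted p = 0.00121) differed in the opposite sense. All 5 were called under all 16 alternatives run for the interaction, which did not include the correction for length and GC content. With that correction the KO effects without apoptotic cells were log2 -0.04 for Zeb2, -0.38 for Adam10, 0.35 for Nectin2 and 0.85 for Pkp2.

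**Figure D4:**
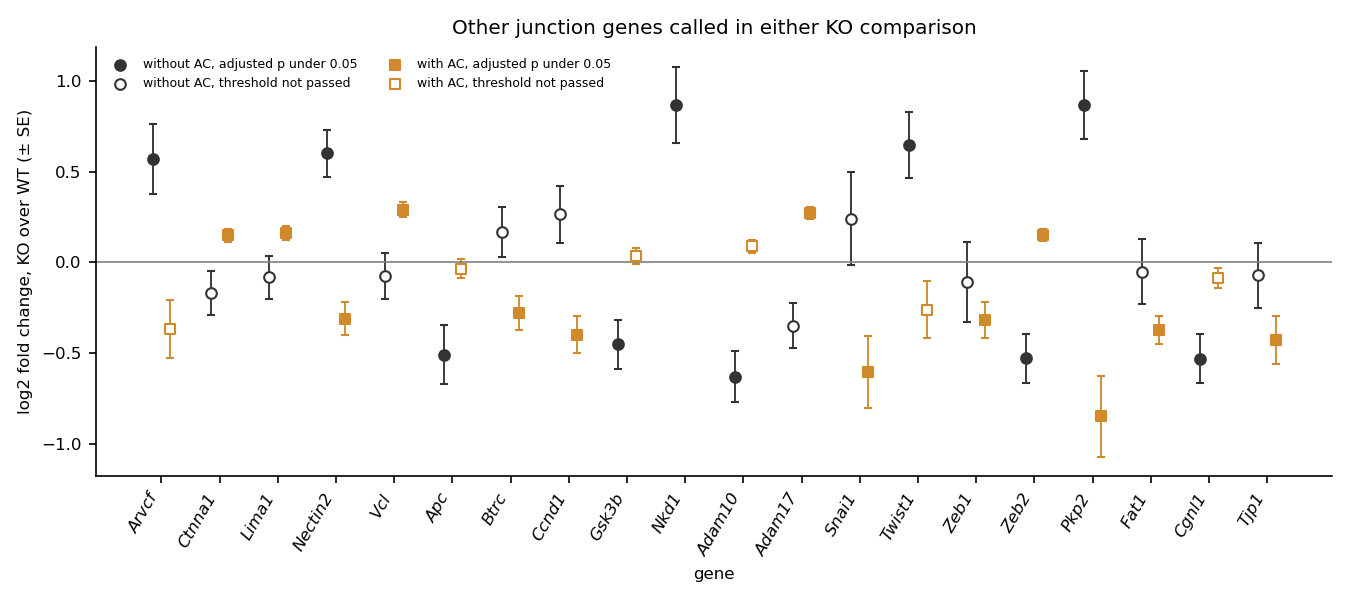
Fitted log2 fold change of KO over WT (vertical axis, ± SE) for the 20 other junction genes named by rule (horizontal axis), without apoptotic cells (circles) and with them (squares). Filled symbols passed an adjusted p of 0.05, and Pkp2 is at 0.87 without and at -0.85 with apoptotic cells.

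Co-culture with apoptotic cells went with large differences in nearly the whole transcriptome. Of 16810 genes in the joint fit, 85% were called in WT (48.3% higher and 36.7% lower) and 86.3% in KO (49.6% higher and 36.7% lower), and groups did not overlap for 86.6% and 86.7%. The median log2 fold change over all genes was 0.25 in WT and 0.32 in KO, and 0.36 and 0.41 with the size factors of DESeq2. Fold changes of the members are given beside their value relative to this median, and without a test. The KO + AC libraries did not overlap with KO for 7 of the 8 members and WT + AC did not with WT for 6 of the 8, near those shares.

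Of the cadherins, 3 were lower and 1 higher with apoptotic cells. Cdh3 had 1.96 ± 0.256 CPM in KO + AC against 29.2 ± 3.39 in KO (log2 -3.89, or -4.21 relative to the median), and 3.96 ± 0.360 CPM in WT + AC against 13.8 ± 3.27 in WT (log2 -1.80, or -2.05). Cdh11 had 10.8 ± 1.39 CPM in KO + AC against 70.2 ± 12.2 in KO (log2 -2.70, or -3.02), and 13.7 ± 0.981 CPM in WT + AC against 51.4 ± 1.25 in WT (log2 -1.91, or -2.16). Cdh2 was lower by less, at 10.3 ± 0.245 CPM in KO + AC against 27.5 ± 4.14 in KO (log2 -1.42, or -1.74) and 15.9 ± 0.582 CPM in WT + AC against 24.5 ± 1.78 in WT (log2 -0.62, or -0.87). Each of these had its highest level in a group without apoptotic cells and its lowest in KO + AC. Cdh1 went the other way, with 83 counts over the KO + AC libraries against 9 over KO (log2 2.84, or 2.52 relative to the median), and 155 over WT + AC against 17 over WT (log2 2.88, or 2.63). The epithelial and mesothelial markers were divided: 3 of 12 were higher and 6 lower without overlap in KO + AC against KO, and 5 higher and 6 lower in WT + AC against WT. Epcam, Msln and Ehf were among the higher ones in both genotypes, as Cdh1 was, and the 5 keratins Krt7, Krt8, Krt14, Krt18 and Krt19 and Upk3b were the lower ones in both. Groups did not overlap for 86.7% of all genes tested in KO and 86.6% in WT, so nothing is read from the marker counts.

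Cxadr was lower with apoptotic cells in both genotypes, at log2 -1.90 in KO + AC over KO (-2.22 relative to the median) and -0.96 in WT + AC over WT (-1.21). The catenins had smaller fold changes than the other members. Ctnnb1 was at log2 0.28 in KO + AC over KO (-0.04 relative to the median) and at -0.09 in WT + AC over WT (-0.34), where its groups overlapped and the sign turned to 0.02 with the size factors of DESeq2. Jup was at 0.12 in KO (-0.20) and 0.15 in WT (-0.10), with overlapping groups in both genotypes. Of the 12 stromal markers 9 were lower without overlap in KO + AC against KO and 1, Pdgfrb, was higher. In WT + AC against WT 8 were lower and 3, Col1a1, Pdgfrb and Thy1, were higher. Over all genes tested, groups did not overlap for 86.7% in KO and 86.6% in WT, so nothing is read from these counts.

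Dsp was at or near 0 without apoptotic cells. The KO libraries had 0, 0 and 1 counts and the WT libraries 0, 0 and 0, against 161 or more in each library with apoptotic cells. Against a floor of 3 counts in each WT library, it was at least 46.7-fold higher in WT + AC than in WT. In KO + AC it was 433-fold higher than in KO, 540 counts against 1, a ratio that rests on that 1 count. Dsp was chosen on its appearance in co-culture, so these values are a description. Its plaque partner Jup was present at similar levels in all 4 groups. Of the 3 other desmosome genes that passed the filter without apoptotic cells, Pkp4 was called higher and Pkp2 lower in both genotypes, and Dsg2 was called higher in WT alone (log2 0.86 in WT and 0.30 in KO, edgeR adjusted p = 0.00134 and 0.218, a difference that was not tested). The desmosomal cadherins that passed only with apoptotic cells were at low levels. Dsg3 was at 0.729 ± 0.185 CPM in KO + AC and 0.852 ± 0.160 CPM in WT + AC, and Dsc1 at 0.678 ± 0.0554 CPM in KO + AC and 0.566 ± 0.0982 CPM in WT + AC. Of the 5 further cadherins that passed the filter without apoptotic cells 4 were called higher in each genotype, such as Cdh24 (12-library scale, 7.93 ± 1.11 CPM in KO + AC against 0.695 ± 0.406 in KO, and 8.71 ± 0.442 CPM in WT + AC against 0.611 ± 0.188 in WT, edgeR adjusted p = 1.17e-13 and 1.96e-14). Over all genes tested, 86.3% were called in KO (49.6% higher) and 85% in WT (48.3% higher).

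The 3 genes of likest pattern to Dsp over the 12 libraries were Bcl11b, a transcription factor of T cells (0.136 log2 units), the class I gene H2-Q2 (0.432) and Sh2d1a, a signalling adaptor of T cells (0.435). Bcl11b had 144, 142 and 156 counts in KO + AC and 144, 189 and 165 in WT + AC, against 0, 0 and 1 in KO and none in WT. In total 34334 symbols had at most 1 count over the 6 libraries without apoptotic cells, and 113 of these, 13 of them protein-coding, had at least 100 counts in each library with them. Besides Dsp, Bcl11b and H2-Q2 these 13, chosen after the values were seen, hold the lymphoid factor genes Lef1 (26.4 CPM in KO + AC and 26.2 in WT + AC) and Myb (11.0 and 11.5 CPM). The others were Il12a, Stmn3, Gm20594, Oprm1, Slc4a10, Zfp711, Pin1rt1 and Hhip. Of these, Il12a had 19.8 CPM in KO + AC and 13.3 in WT + AC. Most T cell markers were, like Dsp, higher with apoptotic cells, and 2 were lower. Of 16, 11 were higher and 2 lower without overlap in KO + AC against KO, and 10 higher and 2 lower in WT + AC against WT. The groups did not overlap for 86.7% of all genes tested in KO and 86.6% in WT. Nothing is therefore read from these counts about the T cell markers as a set. The 2 lower ones were Lat (14.3 CPM in KO + AC against 51.3 in KO, and 17.2 CPM in WT + AC against 33.5 in WT) and Cd28 (4.25 CPM in KO + AC against 13.9 in KO, and 4.90 CPM in WT + AC against 19.4 in WT). The most abundant of the higher ones were Zap70 and Lck. Zap70 had 393 to 446 counts in KO + AC and 360 to 476 in WT + AC, against 0 to 3 in KO and 0 to 4 in WT. Lck had 375 to 468 counts in KO + AC and 471 to 569 in WT + AC, against 12 to 21 in KO and 10 to 16 in WT. Of the 16 T cell markers 15 had counts in every KO + AC library and 14 in every WT + AC library, against 7 in KO and 6 in WT. Some had few counts, such as Dntt with 1 to 3 and Rag1 with 4 in KO + AC. Over all symbols, 31787 to 32801 had counts in a library with apoptotic cells, against 18335 to 18540 without, so nothing is read from this rise. The sum of the 16 markers was 83.3 to 90.2 CPM in KO + AC and 90.5 to 99.5 in WT + AC. Without apoptotic cells it was 61.7 to 73.7 CPM in KO and 54.7 to 55.6 in WT, where Lat and Cd28 made up most of it. Of 3 tested without apoptotic cells 1 was called higher in KO, and of 11 tested with them 2 were called lower in KO + AC. Rag1 was at 0 in both groups without apoptotic cells, Dntt at 0 in KO and Cd3d at 0 in WT. The counts carry no mark of species, so mouse RNA and Jurkat RNA that maps to the mouse gene cannot be told apart here.

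**Figure D5:**
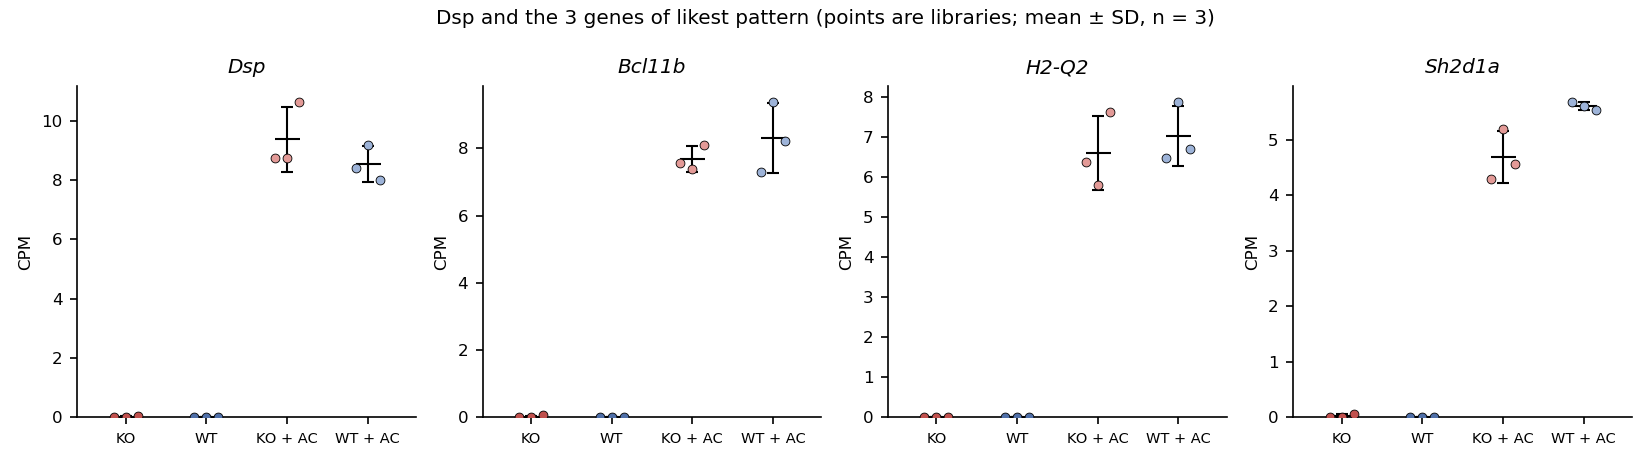
CPM of Dsp and of Bcl11b, H2-Q2 and Sh2d1a (vertical axes, linear from 0) in each library, with the mean and SD of each group. All 4 are at or near 0 without apoptotic cells and, with them, lie between 4.30 and 10.6 CPM in every library.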

How the data were processed

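Raw read counts per gene symbol, 1 column per library, were deposited by the authors in 2 tables, one for the 6 libraries without and one for the 6 with apoptotic cells. The build mm10 and the programs HISAT2 2.0.5, fastp and DESeq2 1.20.0 are named per the submitters' processing notes. How reads were counted, on which annotation and with which strand setting, is not given in the sources used here. Per the labels, polyA RNA was sequenced as paired-end reads on an Illumina Novaseq platform.

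In R 4.3.3, genes were filtered with filterByExpr, scaled by TMM and tested with the robust quasi-likelihood test of edgeR 4.0.16, two-sided, with Benjamini-Hochberg adjustment over all genes and a threshold of 0.05. KO was compared with WT within each table. Co-culture contrasts and interactions came from 1 model of all 12 libraries over the symbols held by both tables. The SE was derived from the test statistic. Replicate pairs differed by more than counting noise (chi-square per degree of freedom 5.35 to 38.7 without and 1.46 to 2.09 with apoptotic cells). Positions and exon lengths came from GENCODE vM21 on GRCm38. The fits were checked on simulated counts. The floor used for Dsp covers counting error only.

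The genes and lists were chosen with earlier results of these data known. Besides the members, the text names of each junction list the called genes with the 4 smallest p per KO comparison, and the 3 genes nearest in pattern to Cdh1, Cdh3, Cxadr and Dsp, averaging 1 CPM or more, with a prior count of 0.5 on the log scale. The symbols Afdn, Nectin1, Cgn and Tcf7l2 were not matched in the table without apoptotic cells. The alternatives were DESeq2 1.42.0, edgeR with the size factors of DESeq2, unfiltered genes, a replicate block, each library left out, the joint or separate fit, a correction for length and GC content, and KO libraries 1 and 2 left out together. The length and GC correction was made for the KO comparisons within each condition, and not for co-culture contrasts or interactions.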

Additional observations from a re-analysis of the deposited data

Results flagged for a closer look

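The opposite order of the labelled genotypes in the 2 conditions flagged Cdh3, whose log2 fold change of KO over WT was 1.09 without and -1.03 with apoptotic cells. Cdh11 was flagged in the same way, at 0.45 without and -0.36 with them. For these 2 genes the groups did not overlap in either condition, and the difference between the conditions was not tested. Their order with apoptotic cells rests on labels that Kif13b goes against.

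The other flagged results are junction genes with a called interaction of genotype and apoptotic cells in the joint fit of edgeR, given as the KO effect with minus that without apoptotic cells on the log2 scale. They were named for a call in at least 1 of the KO comparisons, and the sign rests on labels that Kif13b goes against in co-culture. The value was negative for Pkp2 (-1.69), Arvcf (-0.915), Nectin2 (-0.888), Twist1 (-0.885) and Ccnd1 (-0.637). It was positive for Adam10 (0.743), Zeb2 (0.704), Adam17 (0.644), Gsk3b (0.514) and Cgnl1 (0.469). The interactions of Arvcf, Ccnd1, Cgnl1, Gsk3b and Twist1 each lost their call when at least 1 library was left out.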

How the results depend on the processing

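Of 350 recomputed values of the members, 326 kept their direction and their side of the threshold, or, where no test was made, stayed within the spread between libraries. The sign turned for Ctnnb1 in WT + AC over WT, at 0.023 with DESeq2 and with its size factors, and without KO library 3 for Cdh2 (-0.00762 to 0.236 with 1 library left out) and Cxadr (-0.187 to 0.255) in KO over WT, neither of them called. The uncalled interaction of Zeb1 (-0.434 to 0.102) also turned without KO library 3. Of 130 values of the named junction genes without apoptotic cells 43 lost the call and of 154 with them 48, and 0 turned their sign.

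Without apoptotic cells, 2045 genes were called, and 312 to 4165 with 1 library left out (junction lists 2 to 15, members 1 to 2). The joint fit called 3999 genes and 16 list genes, the length and GC correction 931 and 6, and 95 and 1 were called without KO libraries 1 and 2 together. With apoptotic cells 1866 were called, and 1191 to 2142 with 1 library left out (lists 8 to 10). DESeq2 called 1239 and 8, and the joint fit 157 and 0. With the length and GC correction 1763 were higher and 635 lower, against 1083 and 783 without it. The cause of these shifts was not tested. The joint fit had a biological coefficient of variation of 0.0839, between 0.117 without and 0.0294 with apoptotic cells.

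Same-numbered KO and WT libraries did not deviate together (r -0.247, -0.0021 and 0.188 across genes without, and 0.0326, -0.0852 and -0.102 with apoptotic cells), so the numbers were not taken as pairs. With the replicate block 2497 genes, 10 list genes and 2 members were called without and 1649 and 11 with apoptotic cells, and 14245 and 48 for co-culture in WT and 14453 and 59 in KO. Levels of a few counts, such as Cdh1 and Dsp without apoptotic cells, limit what this depth shows.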
